A study of Homo sapiens with 12 samples.

Results

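The comparison was of MDA-MB-231 cells treated with SFN alone against cells treated with vehicle, 6 of the 12 RNA-seq libraries of the study, 3 in each group. MDA-MB-231 is an established human triple-negative breast cancer line. SFN cells received 1 µM SFN for 48 h. Vehicle cells received 0.01% DMSO and 0.05% water for the same 48 h. The other 6 libraries were from cells given 0.5 µM ZA alone or 1 µM SFN with 0.5 µM ZA, again for 48 h, and they entered the fit to share the estimate of the spread. Whether the treated dishes held the same solvents as the vehicle dishes is not given in the sources used here. Of 57905 genes in the table, 15142 passed the low-count filter over all 12 libraries, and 15353 passed it when replicate 2 of both SFN and vehicle was left out. Dishes were plated in triplicate and nothing says that the replicates came from separate cultures, so that the p-values reflect how far these libraries vary, a variation that could be purely technical.

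SFN is the usual abbreviation of sulforaphane, an isothiocyanate from cruciferous vegetables, although the labels do not spell it out. It is best known for modifying cysteines of KEAP1, the adaptor that otherwise hands the transcription factor NRF2 (gene NFE2L2) to the CUL3 ubiquitin ligase for degradation. Stabilised NRF2 pairs with a small MAF protein on the antioxidant response element and raises genes of glutathione and thioredoxin metabolism, NADPH production, quinone reduction, heme breakdown and drug export. Sulforaphane is also known for effects on histone deacetylases, heat shock proteins, mitosis and tubulin. The gene SFN (stratifin) is unrelated to the compound.

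The antioxidant response element is shown here because the NRF2 targets are the group the compound is known for. Its core TGACNNNGC was searched on both strands of the 250 bases upstream of each RefSeq gene start (GRCh38.p14). The core was present in 14 of the 52 tested NRF2 target genes that had a window (26.9%), against 13.2% of all genes with a window, as a description only. GCLM, the modifier subunit of glutamate-cysteine ligase, and ME1, cytosolic malic enzyme, are shown with the core, or its reverse complement in GCLM, in capitals and each gene's own strand read 5′ to 3′. The GCLM stretch is chr1:93909431-93909504 and the ME1 stretch chr6:83431140-83431228, both on the minus strand. A match describes the letters and says nothing of binding in these cells.
GCLM: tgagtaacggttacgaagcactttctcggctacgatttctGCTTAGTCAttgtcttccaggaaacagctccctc
ME1: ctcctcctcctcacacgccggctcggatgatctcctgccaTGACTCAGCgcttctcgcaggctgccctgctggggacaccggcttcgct

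Library depth was even, at 15265377 to 18301873 gene-assigned counts in the 6 libraries, but 2 of them stood apart. On the first principal component of log2 CPM over the 12 libraries (70.4% of variance), SFN 2 scored 169.9 and vehicle 2 scored 67.4, while every other library scored between -47.5 and -3.99. FTH1, the ferritin heavy chain, shows the size of that departure. It had 719, 19.5 and 503 CPM (counts per 1000000 counts of the library, scaled by TMM) in SFN 1, 2 and 3, and 704, 58.8 and 609 CPM in vehicle 1, 2 and 3. Replicate 2 was far below both other replicates in either group. Most results are therefore given for all 12 libraries and again without replicate 2 of SFN and vehicle. The line's markers were in part as its label says: VIM, CD44, CAV1, EGFR and AXL were present in all 6 libraries at 22.3 to 440 FPKM. SPARC, which was also taken as a marker of the line, stayed between 0.132 and 0.268 FPKM. Of the genes taken as low in the line, ESR1 and PGR were listed at 0 and CDH1 at 0.112 to 0.474 FPKM. The others were present, ERBB2 at 2.65 to 11.6, GATA3 at 3.47 to 6.06 and EPCAM at 5.77 to 16.9 FPKM.

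No gene differed between SFN and vehicle at an adjusted p under 0.05 (edgeR quasi-likelihood F test, Benjamini-Hochberg adjustment), 0 of 15142 in either direction (0%). The lowest adjusted p was 0.728, and 753 genes had an unadjusted p under 0.05, of which 466 were higher with SFN (3.08% of genes tested) and 287 lower (1.9%). Without replicate 2, again no gene of 15353 was called (0%) and the lowest adjusted p was 0.299, while 1442 genes had an unadjusted p under 0.05, 541 higher (3.52%) and 901 lower (5.87%). DESeq2 on all 12 libraries called none and gave 851 genes at an unadjusted p under 0.05. The authors' deposited table likewise held no gene under an adjusted p of 0.05 among 23911 with a value, with 165 at an unadjusted p under 0.05 and a lowest adjusted p of 0.996.

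The precision set what could be seen. The median gene's 95% interval reached 0.62 log2 units to either side with all 12 libraries and 0.40 without replicate 2, and the common biological coefficient of variation was 31.0% and 12.5%. The interval lay wholly between a halving and a doubling for 8126 genes (53.7%) with all 12 libraries and for 11242 genes (73.2%) without replicate 2. For the remaining genes, a change of that size was not excluded at this replication.

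No NRF2 target was called with all 12 libraries or without replicate 2, and the median of the group lay near 0 in both fits. Of 75 listed genes in 5 target lists, 66 passed the count filter, and their median log2 fold change was -0.08 with 27 above 0, against -0.01 and 49.2% above 0 over all genes. Without replicate 2 the median was 0.02 with 39 of 66 above 0, against 0.00 and 50.5% over all genes. With all 12 libraries 3 of the 66 were higher and 1 was lower at an unadjusted p under 0.05, and without replicate 2 these counts were 9 higher and 2 lower, where 3.52% of all genes were higher and 5.87% lower at that p. ABCC3 was called when replicate 2 was left out and GC content was corrected, as given below. When replicate 2 and the low-count filter were both left out, SLC7A11 and MGST1 were called higher and PRDX5 lower. That fit called 46 of 29097 genes higher (0.158%) and 322 lower. For 44 of the 66 the 95% interval lay between a halving and a doubling, and for 61 of them without replicate 2. SFN and vehicle did not overlap in 7 of the 66, 2 higher and 5 lower, where 4.4% and 3.48% of all genes tested did so. Without replicate 2, with 2 libraries a group, 21 did not overlap on the higher and 16 on the lower side, where 24.6% and 23% of all genes did so.

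The cystine importer SLC7A11 had the clearest separation of the NRF2 targets and was also among the 12 higher genes that the selection rule named. SLC7A11 (ENSG00000151012, hg19 chromosome 4, 139085251 to 139163503, minus strand) supplies the cystine for glutathione. It had 158, 191 and 163 CPM in SFN 1, 2 and 3, against 101, 126 and 117 CPM in vehicle 1, 2 and 3. Every SFN library lay above every vehicle library. The log2 fold change was 0.57 ± 0.16 (SE, n = 3 each; edgeR adjusted p = 0.728) with a 95% interval of 0.21 to 0.93, and 0.55 ± 0.16 without replicate 2 (adjusted p = 0.517). With the GC offset described below it was 0.27 with all 12 libraries and 0.32 without replicate 2.

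GCLC, the catalytic subunit of glutamate-cysteine ligase and the rate-limiting step of glutathione synthesis, was the other target whose groups did not overlap on the higher side. GCLC had 40.4, 72.7 and 39.2 CPM in SFN 1, 2 and 3, against 33.8, 36.3 and 32.4 CPM in vehicle. The SFN 2 library was far above the other SFN libraries, and without replicate 2 the log2 fold change of 0.57 ± 0.22 became 0.26 ± 0.11. GCLM had 204, 321 and 200 CPM in SFN libraries, against 153, 224 and 175 CPM in vehicle libraries. The groups overlapped through vehicle 2, although SFN was higher in every same-numbered pair of libraries, and the log2 fold change was 0.39 ± 0.21, or 0.29 ± 0.14 without replicate 2. MGST1, a microsomal glutathione transferase, had 156, 334 and 164 CPM in SFN libraries, against 103, 177 and 128 CPM in vehicle libraries. Vehicle 2 lay among the SFN libraries, and the log2 fold change was 0.68 ± 0.30, and 0.46 ± 0.18 without replicate 2.

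Some glutathione genes lay the other way. GPX4, which reduces lipid peroxides, had 286, 123 and 303 CPM in SFN libraries, against 332, 363 and 317 CPM in vehicle libraries. GSTP1, a cytosolic glutathione transferase, had 237, 110 and 244 CPM with SFN, against 343, 261 and 261 CPM with vehicle. Neither pair of groups overlapped, and the log2 fold changes of -0.51 ± 0.26 for GPX4 and -0.55 ± 0.27 for GSTP1 became -0.15 ± 0.09 and -0.33 ± 0.16 without replicate 2. The 18 tested genes of glutathione and cystine metabolism divided evenly, 9 above and 9 below 0, with a median log2 fold change of -0.02.

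Among the genes of thioredoxin metabolism, 8 of 10 lay below 0 (median -0.17, and -0.06 without replicate 2). TXN, thioredoxin itself, had 455, 1415 and 489 CPM in SFN libraries, against 338, 756 and 403 CPM in vehicle libraries. The log2 fold change was 0.66 ± 0.43 with all libraries and 0.34 ± 0.16 without replicate 2, and the groups overlapped because of vehicle 2. Its reductase TXNRD1 had 1188, 1670 and 1180 CPM under SFN, against 1111, 1402 and 1070 CPM under vehicle. Replicate 2 was the highest in both groups, which overlapped, and the 95% interval was -0.18 to 0.53. PRDX2, a cytosolic peroxiredoxin, had 119, 83.9 and 118 CPM in SFN libraries and 159, 151 and 127 CPM in vehicle libraries. The groups did not overlap, at a log2 fold change of -0.45 ± 0.16, or -0.28 ± 0.13 without replicate 2. SRXN1, sulfiredoxin, was too low to compare, at 0 to 0.581 CPM with SFN and 0 to 1.47 CPM with vehicle.

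NQO1, the quinone reductase often used as a readout of NRF2, had 325, 360 and 315 CPM in SFN 1, 2 and 3, against 257, 327 and 277 CPM in vehicle. SFN 1 and SFN 3 lay above vehicle 1 and vehicle 3, but vehicle 2 reached above both. The log2 fold change was 0.22 ± 0.12 with a 95% interval of -0.06 to 0.49, and 0.25 ± 0.09 with an interval of 0.05 to 0.45 without replicate 2 (edgeR adjusted p = 0.517). A doubling of NQO1 lay outside both intervals. The 12 tested genes of quinone, aldehyde and carbonyl reduction had a median of 0.13, with 7 above 0, and of 0.08 without replicate 2, with 10 above 0.

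In NADPH production, ME1 had 78.4, 97.6 and 75.3 CPM in SFN libraries, against 52.2, 87.2 and 58.1 CPM in vehicle libraries. SFN was higher within every pair of the same number, and vehicle 2 again overlapped the SFN libraries. The log2 fold change was 0.35 ± 0.21, and 0.47 ± 0.15 without replicate 2. HMOX1, the heme oxygenase that is among the best known NRF2 targets, had 9.88, 2.04 and 13.2 CPM in SFN libraries, against 18.2, 7.19 and 13.7 CPM in vehicle libraries. The log2 fold change was -0.64 ± 0.55 with an interval of -1.86 to 0.58, and the groups overlapped. Without replicate 2 it was -0.47 ± 0.28. ABCC3, an organic anion exporter, had 104, 32 and 106 CPM with SFN, against 88.2, 68.6 and 73.7 CPM with vehicle. SFN 2 was the lowest library, and the log2 fold change of 0.07 ± 0.35 became 0.37 ± 0.14 without replicate 2.

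NRF2 and its regulators were measured at 15 of 15 genes, and none was called. NFE2L2 had 201, 363 and 207 CPM in SFN libraries and 152, 210 and 194 CPM in vehicle libraries, a log2 fold change of 0.47 ± 0.26, or 0.23 ± 0.20 without replicate 2. KEAP1 had 104, 32.5 and 108 CPM in SFN libraries and 102, 80.5 and 107 CPM in vehicle libraries. Outside replicate 2 the KEAP1 libraries were level, and the log2 fold change of -0.24 ± 0.35 became 0.012 ± 0.11. BACH1, which represses the same elements, lay at 0.34 ± 0.24 and at 0.35 ± 0.17 without replicate 2.

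Replicate 2 stood apart in both groups, so overlap between the groups can hide a difference within same-numbered pairs. That the numbers pair the libraries was an assumption. NQO1, GCLM, GCLC, SLC7A11, MGST1, TXN, TXNRD1, ME1 and NFE2L2 were higher with SFN in 3 of 3 pairs. Other NRF2 targets, among them HMOX1, GPX4, GSTP1, PRDX1, PRDX2, ABCC1, PGD, CBR1 and GGT1, were lower with SFN in 3 of 3 pairs. Neither list is complete, and the share over all genes was not counted. In log2 CPM the pair differences of NQO1 were 0.34, 0.14 and 0.19, and those of GCLM were 0.41, 0.52 and 0.20. With the pairs as a block in the fit of the 6 libraries, no gene was called.

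Several of these values also depended on the GC content of the genes. With the GC offset described below, GCLM lay at 0.085 with all 12 libraries and at 0.091 without replicate 2, TXNRD1 at 0.055 and 0.056, and ME1 at 0.11 and 0.30. MGST1 and TXN lay at 0.45 and 0.42 with all 12 libraries. NQO1 lay at 0.16 and 0.23. On the lower side, GPX4 came to -0.025 and 0.066, GSTP1 to 0.054 and -0.11, PRDX2 to -0.032 and -0.12, and HMOX1 to -0.37 and -0.29.

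**Figure D1:**
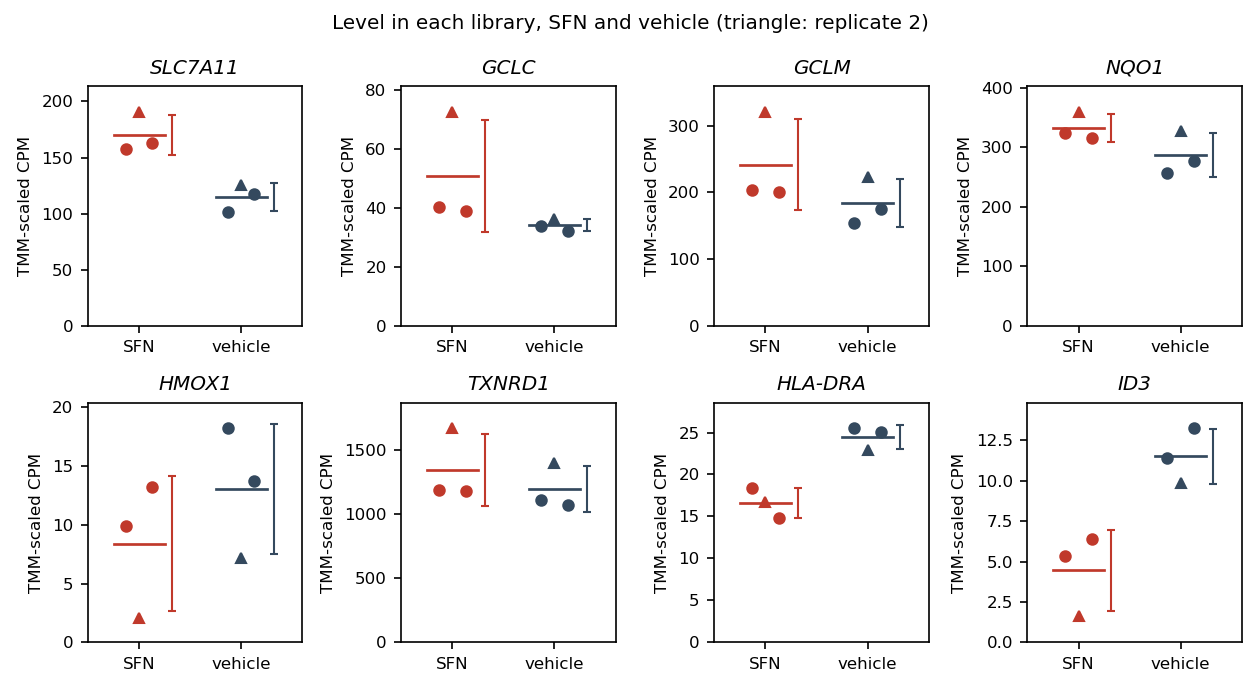
Levels of 8 genes in TMM-scaled CPM (vertical axis from 0) in each library, SFN on the left and vehicle on the right of each panel; triangles are replicate 2, horizontal lines are means and bars are SD (n = 3). SLC7A11 and GCLC libraries lie higher with SFN without overlap, HLA-DRA and ID3 lower without overlap, and the other 4 genes overlap.

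**Figure D2:**
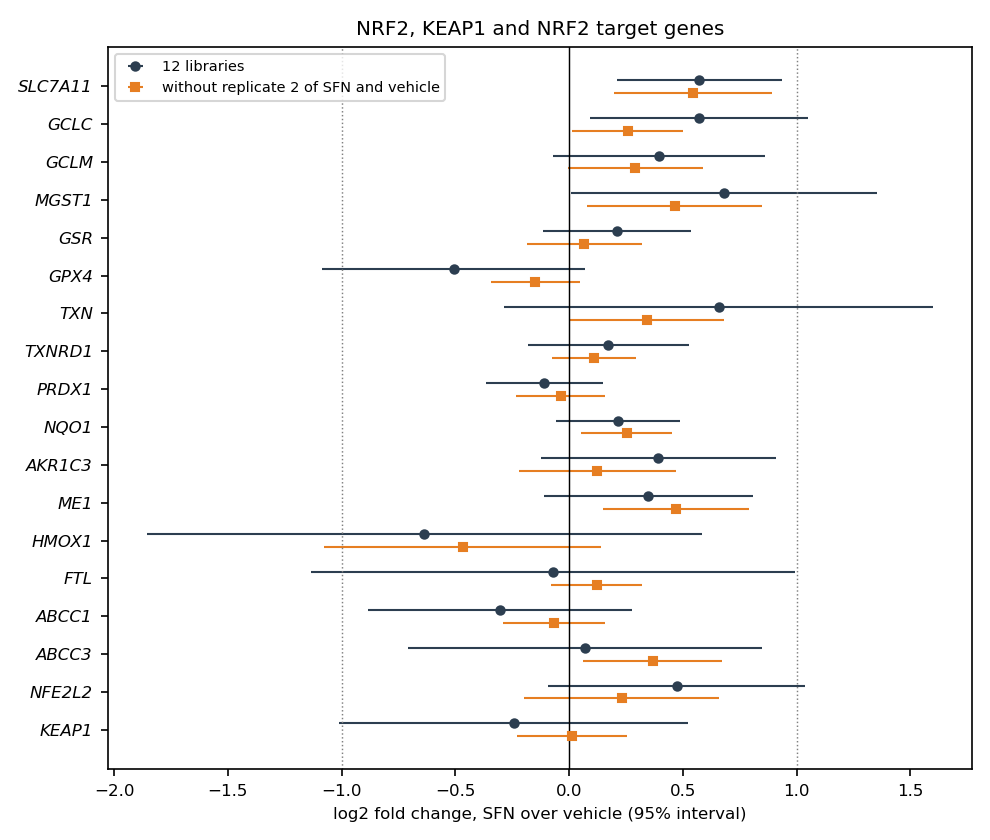
Log2 fold change of SFN over vehicle (horizontal axis) with its 95% interval for NFE2L2, KEAP1 and 16 NRF2 targets that were picked by role with the values known, from all 12 libraries (circles) and without replicate 2 of SFN and vehicle (squares). Dotted lines mark a halving and a doubling, and intervals narrow for most genes when replicate 2 is left out.

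The genes named by rule were the 12 higher and 12 lower protein-coding genes with the lowest unadjusted p among those with a mean of 1 CPM or more over the 6 libraries whose SFN and vehicle libraries did not overlap and whose sign was the same without replicate 2. The values of this same contrast chose them, from 521 higher and 422 lower candidates, so their fold changes are a description. The higher genes were DDX26B, SCG5, NOL7, SLC7A11, TTC32, HDAC9, DOCK10, SLC25A27, SMIM8, RGPD3, COCH and ICA1, at log2 fold changes of 0.45 to 1.55. The lower genes were RGN, HLA-DRA, KIAA1199, CHCHD1, AP1S1, CCDC3, GSTM1, NANOS1, ID3, BRF2, TMEM139 and NPPB, at -1.56 to -0.53. Every adjusted p of the 24 was 0.728 with all 12 libraries (edgeR). Without replicate 2 the median log2 fold changes of 0.83 for the higher and -0.65 for the lower genes became 0.73 and -0.59. RGPD3 went from 1.55 to 1.02, DOCK10 from 1.31 to 0.64 and RGN from -1.56 to -1.06, while SMIM8 went from 0.78 to 0.98.

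DDX26B, an uncharacterised relative of an Integrator subunit gene, had 6.65, 6.52 and 6.99 CPM in SFN libraries, against 3.33, 3.48 and 3.88 CPM in vehicle libraries. Replicate 2 did not stand apart for this gene, and the log2 fold change was 0.91 ± 0.18 with and 0.91 ± 0.21 without it. HDAC9, a class IIa histone deacetylase, had 59.4, 62.4 and 64.3 CPM with SFN, against 42.0, 46.1 and 48.1 CPM with vehicle. Its log2 fold change was 0.45 ± 0.13, and 0.45 ± 0.14 without replicate 2, but 0.22 and 0.30 with the GC offset. SCG5, a chaperone of a prohormone convertase, had 5.10, 7.03 and 6.08 CPM in SFN libraries, against 3.40, 3.48 and 3.10 CPM in vehicle libraries. SLC25A27, a mitochondrial carrier of the uncoupling protein family, had 11.8, 10.3 and 11.5 CPM with SFN, against 6.46, 9.04 and 7.10 CPM with vehicle. For both genes all SFN libraries lay above all vehicle libraries, and without replicate 2 the log2 fold changes of 0.87 and 0.57 were 0.78 and 0.77.

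On the lower side, ID3, an inhibitor of basic helix-loop-helix factors and a BMP target, had 5.36, 1.64 and 6.38 CPM in SFN libraries, against 11.4, 9.88 and 13.3 CPM in vehicle libraries. The log2 fold change was -1.37 ± 0.40, and -1.08 ± 0.23 without replicate 2. HLA-DRA, the alpha chain of an MHC class II molecule, had 18.3, 16.7 and 14.8 CPM with SFN, against 25.5, 22.9 and 25 CPM with vehicle. Its replicates were close within each group, at -0.56 ± 0.14 and -0.62 ± 0.14 without replicate 2. KIAA1199, a hyaluronan-binding protein gene, had 145, 112 and 146 CPM in SFN libraries, against 219, 196 and 177 CPM in vehicle libraries. Its log2 fold change was -0.55, and -0.45 without replicate 2. RGN, a calcium-binding lactonase, had 0.904, 0.453 and 0.669 CPM with SFN and 1.67, 2.69 and 1.61 CPM with vehicle, so that its log2 fold change of -1.56 ± 0.35 rests on low counts. NPPB, which encodes a natriuretic peptide, had 23.2, 15.4 and 26.3 CPM with SFN and 50.7, 36.8 and 37.5 CPM with vehicle.

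Of the 24, 4 overlap the span of a neighbouring gene. How far the counts of both can be separated is not known, since neither strand nor counting tool is given and the length of overlap was not measured. NOL7 overlaps RANBP9, COCH overlaps STRN3, CCDC3 overlaps OPTN and GSTM1 overlaps its paralog GSTM2, each neighbour having more counts than the gene named. The median GC content of the longest transcript was 41.2% for the 12 higher genes and 53.2% for the 12 lower genes. With the GC offset and all 12 libraries, the log2 fold change shrank by more than 1.5 times in 3 of the 12 higher genes, SLC7A11, TTC32 and HDAC9. It did so in 5 of the 12 lower genes, to -0.32 in KIAA1199, -0.25 in AP1S1, -0.35 in GSTM1, -0.44 in BRF2 and -0.56 in NPPB. Without replicate 2 it shrank that far in SLC7A11 and HDAC9.

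The same SFN step was also measured on a ZA background, in libraries outside the SFN and vehicle groups. No gene was called there either (0 of 15142, 0% in each direction; edgeR), with 159 at an unadjusted p under 0.05, higher in 0.614% and lower in 0.436% of genes. None was called for the difference between both steps (0% in each direction), with 257 at an unadjusted p under 0.05, 0.634% toward a higher and 1.06% toward a lower step with ZA. Of the 12 higher genes, 5 had a positive log2 fold change in SFN+ZA against ZA, where 49.5% of all genes did. Of the 12 lower genes, 10 had a negative one. SFN+ZA and ZA did not overlap on the same side for 2 of the 12 higher genes, SCG5 and SLC25A27, and for 4 of the 12 lower ones, HLA-DRA, KIAA1199, CCDC3 and ID3, against 6.99% and 5.77% of all genes. NOL7 and COCH did not overlap on the opposite side. The ZA and SFN+ZA libraries shared in the estimate of spread behind the p that chose these genes. A low spread there favours both the choice and a lack of overlap, so these counts are not independent of the choice.

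HLA-DRA had 17.1, 17.8 and 19.0 CPM in SFN+ZA libraries, against 22.6, 22.0 and 23.4 CPM in ZA libraries, a log2 fold change of -0.34 ± 0.14. ID3 had 5.73, 7.84 and 5.93 CPM in SFN+ZA libraries, against 9.67, 12.7 and 14.1 CPM in ZA libraries, at -0.90 ± 0.39. All SFN+ZA libraries were below all ZA libraries in both genes. Among NRF2 targets, GCLC had 39.5, 42.5 and 37.7 CPM with SFN+ZA, against 31.5, 32.7 and 31.6 CPM with ZA, and NQO1 had 276, 297 and 289 CPM with SFN+ZA, against 249, 245 and 237 CPM with ZA. Neither pair overlapped, at 0.32 ± 0.22 for GCLC and 0.24 ± 0.12 for NQO1. SLC7A11 lay at 0.42 ± 0.16 with overlap through ZA 1. These genes were picked, and how many of the 66 tested NRF2 targets did not overlap was not counted. The 66 had a median log2 fold change of 0.03 in SFN+ZA against ZA, with 37 above 0, where 49.5% of all genes were. Of the 10 genes of thioredoxin metabolism, 7 lay below 0. Across all 15142 genes, the log2 fold changes of both steps had a Pearson correlation of -0.03, as a description over genes that are not independent. Without replicate 2 of SFN and vehicle it was 0.04, and with the GC offset 0.06 and 0.10, so that its sign depended on the fit.

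**Figure D3:**
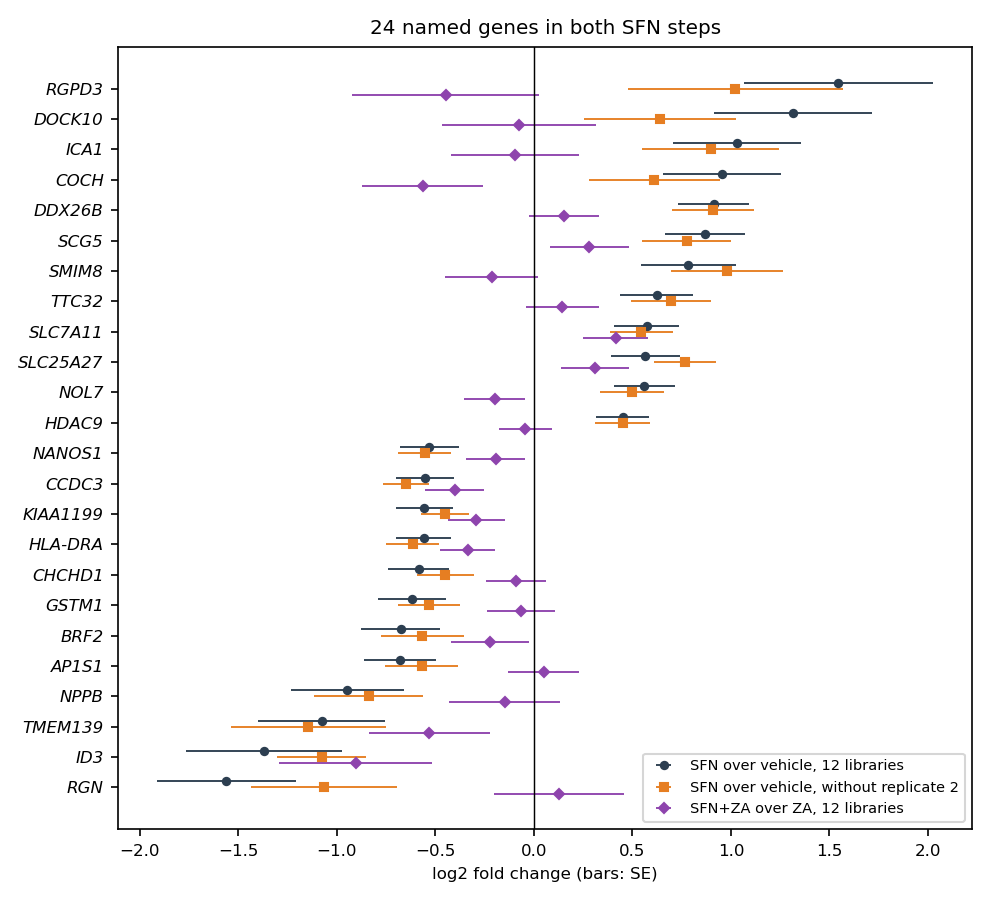
Log2 fold change (horizontal axis, bars are SE) of the 24 genes named by rule, for SFN over vehicle from 12 libraries (circles), the same without replicate 2 (squares) and SFN+ZA over ZA (diamonds). The circles and squares fix the choice of genes. The diamonds come from other libraries, which entered the choice only through the shared estimate of spread. They lie on the same side of 0 for 5 of the 12 higher and 10 of the 12 lower genes.

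Of the 37 lists with 5 or more tested genes, no list held a called gene with all 12 libraries or without replicate 2, and the largest median belonged to the 13 mitochondrially encoded genes, all subunits of the respiratory chain or ATP synthase. Their median log2 fold change was 0.76 with 13 of 13 above 0, and 0.74 without replicate 2, again with 13 above 0. MT-CO1, a core subunit of cytochrome oxidase, had 8839, 5682 and 7386 CPM in SFN libraries, against 6543, 1936 and 3899 CPM in vehicle libraries. SFN was higher in each same-numbered pair, yet SFN 2 lay below vehicle 1, and the log2 fold change was 0.82 ± 0.34, or 0.63 ± 0.19 without replicate 2. Some alternatives without replicate 2 did call these genes, all of them higher. DESeq2 called 6 of the 13, MT-ATP6, MT-ND2, MT-ND4, MT-ND4L, MT-ND5 and MT-ND6, among the 0.0977% of genes it called higher. Without the low-count filter 10 of the 13 were called, where 0.158% of genes were called higher. The fit of 4 libraries called MT-ND2, where 0.0625% were called higher, and leaving out vehicle 1 as well, so that 1 vehicle library was left, called 9, where 0.0684% were called higher. As a share of each library, mitochondrial counts averaged 3.29 ± 1.47% with SFN and 1.98 ± 1.25% with vehicle (SD, n = 3 each; exact permutation test, two-sided p = 0.3, where 3 against 3 cannot go below 0.1). Taken by pairs, the share was higher with SFN by 1.05, 0.829 and 2.05 percentage points (exact sign-flip permutation test over 3 pairs, two-sided p = 0.25, the smallest that 3 pairs allow). The 28S ribosomal RNA gene RNA28S5 moved the opposite way, with 1.22, 0.0161 and 0.901% of counts in SFN libraries, against 2.06, 0.585 and 1.46% in vehicle libraries. Its share was lower with SFN in 3 of 3 pairs, though the groups overlapped (exact permutation test, two-sided p = 0.4, and p = 0.25 by pairs), and its part in the mitochondrial result was not tested. These genes are copied from 1 genome and their transcripts move together, so they are not independent. In SFN+ZA against ZA their median was 0.14, with 10 of 13 above 0. The 26 nuclear genes of the respiratory chain had a median of -0.03.

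The MHC class I and II genes, which present peptides to T cells, lay lower: 15 of 17 were below 0, with a median log2 fold change of -0.42, and -0.33 without replicate 2 with 14 of 17 below 0. SFN and vehicle did not overlap on the lower side in 3 of them, HLA-DRA, HLA-B and HLA-E, where 3.48% of all genes did so. HLA-B, a class I heavy chain, had 456, 356 and 465 CPM in SFN libraries, against 615, 568 and 520 CPM in vehicle libraries, at -0.42 ± 0.14, or -0.31 ± 0.11 without replicate 2. HLA reads can be shared among near-identical HLA genes, so that single members are uncertain. With the GC offset HLA-B turned to 0.18, and to -0.12 without replicate 2, while HLA-DRA lay at -0.58 and -0.61. The list median in SFN+ZA against ZA was -0.09.

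The epithelial markers had the lowest median, -0.43 with 13 of 17 below 0, and -0.35 without replicate 2. With the GC offset it was 0.04 with all 12 libraries and -0.12 without replicate 2, where 14 of 17 lay below 0. CDH1, the epithelial cadherin, had 0.711, 0.964 and 1.70 CPM in SFN libraries, against 2.93, 2.19 and 2.21 CPM in vehicle libraries, a low level throughout. KRT18, a simple epithelial keratin whose locus overlaps KRT8, had 188, 200 and 186 CPM with SFN and 303, 273 and 226 CPM with vehicle. In both genes the groups did not overlap, at -1.11 ± 0.35 for CDH1 and -0.48 ± 0.15 for KRT18. These were the 2 of 17 markers without overlap on the lower side, where 3.48% of all genes lay so. Without replicate 2 CDH1 and KRT18 lay at -1.08 ± 0.41 and -0.51 ± 0.16, and with the GC offset KRT18 lay at -0.015, or -0.36 without replicate 2. With replicate 2 and the low-count filter both left out, KRT8 and KRT18 were among 322 genes called lower. In bulk RNA, fewer cells of a kind and less RNA per cell cannot be told apart. The mesenchymal markers had a median of 0.15, and -0.01 without replicate 2. Markers of blood and immune cells were near absent: 2 of 12 genes passed the count filter, and the summed FPKM of that list ran from 0.934 to 1.64 with SFN and from 1.65 to 2.37 with vehicle. Of 12 listed fibroblast and endothelial genes, 6 passed the filter. The summed FPKM of 11 of them ran from 3.07 to 7.55 with SFN and from 4.98 to 8.42 with vehicle. Breast lineage markers were present. The luminal list summed to 175 to 244 FPKM with SFN and 227 to 345 FPKM with vehicle. The basal list summed to 598 to 1044 FPKM with SFN and 602 to 803 FPKM with vehicle. Their part in the result was not tested.

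Lists on the other known actions of sulforaphane moved with replicate 2 and with the GC offset. The heat shock response had a median of 0.26 with 14 of 20 above 0, which became 0.04 without replicate 2. HSP90AA1, a cytosolic chaperone, had 1845, 3312 and 1680 CPM in SFN libraries, against 1482, 1549 and 1694 CPM in vehicle libraries, where SFN 2 stood far above the rest and SFN 3 lay within the vehicle libraries. HSPA1A, the inducible HSP70, had 18.0, 35.8 and 14.7 CPM with SFN and 24.4, 22.9 and 17.6 CPM with vehicle. Its log2 fold change of 0.08 became -0.37 without replicate 2. The mitosis genes had a median of 0.22, and 0.05 without replicate 2. The tubulins had a median of -0.21 with 10 of 11 below 0, and -0.07 without replicate 2. The histone deacetylases had a median of -0.25 with 13 of 16 below 0, and -0.06 without replicate 2. With the GC offset and all 12 libraries, the tubulin median was 0.05 with 8 of 11 above 0. That of the histone deacetylases was then -0.003 with 8 of 16 above 0, that of the heat shock response 0.17 and that of the mitosis genes 0.12. HDAC1 had 144, 132 and 149 CPM in SFN libraries, against 152, 195 and 156 CPM in vehicle libraries, at -0.24 ± 0.13, or -0.08 ± 0.10 without replicate 2. CDKN1A, the p21 cell cycle inhibitor, had 119, 27.6 and 137 CPM with SFN and 156, 71.1 and 131 CPM with vehicle.

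**Figure D4:**
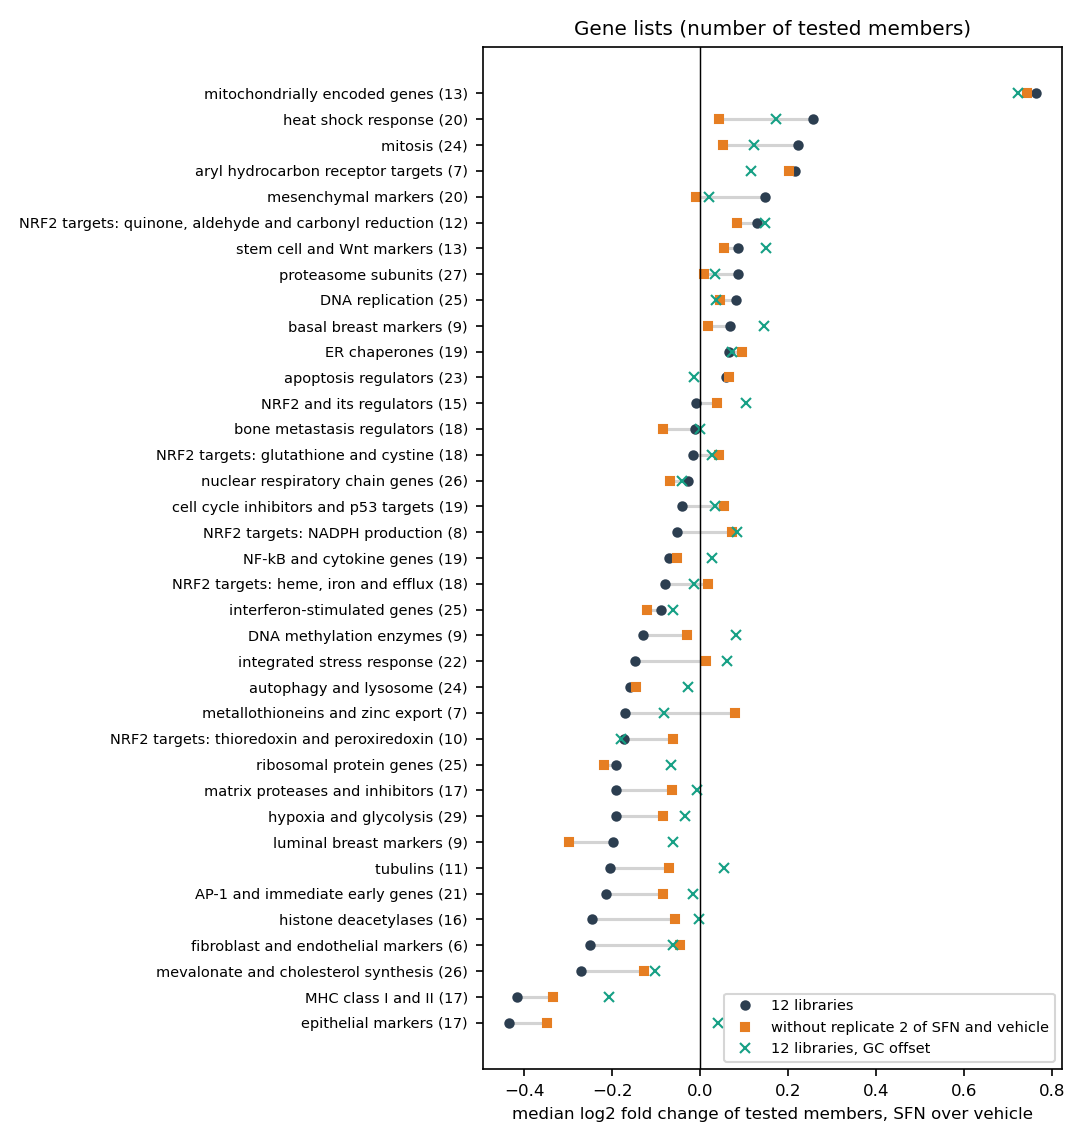
Median log2 fold change of SFN over vehicle (horizontal axis) of the 37 gene lists with 5 or more tested members, from 12 libraries (circles), without replicate 2 of SFN and vehicle (squares) and from 12 libraries with the GC offset (crosses). The mitochondrially encoded genes lie between 0.72 and 0.76 and the MHC genes between -0.42 and -0.21, while 8 lists change sign without replicate 2 and 10 with the GC offset.

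The fold changes followed the GC content of the transcripts. Genes with an unadjusted p under 0.05 had a median GC content of 40.4% where higher and 53.7% where lower with SFN, against 48.3% over all genes. Across genes, the log2 fold change and GC content had a Spearman correlation of -0.67 with all 12 libraries and of -0.48 without replicate 2, as descriptions over genes. Within single libraries, the correlation of each gene's deviation with GC content was -0.42, -0.81 and -0.43 in SFN 1, 2 and 3, and 0.54, -0.60 and -0.25 in vehicle 1, 2 and 3. The groups overlapped in this measure (exact permutation test, two-sided p = 0.4), although it was lower with SFN in 3 of 3 pairs. When a smooth GC trend was taken out of each library, no gene was called with 12 libraries. Without replicate 2, 5 of 15353 genes were called, 4 higher (0.0261%) and 1 lower (0.00651%).

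Those 5 genes were named after their values were seen. OGT, the O-GlcNAc transferase, had 275, 185 and 282 CPM in SFN libraries, against 183, 248 and 191 CPM in vehicle libraries. Replicates 1 and 3 were higher with SFN and replicate 2 was lower, and the GC-offset log2 fold change without replicate 2 was 0.47 ± 0.07 (edgeR adjusted p = 0.0407). The splicing helicase gene DDX39B, the pseudogene HERC2P2 and ABCC3 followed the same pattern at 0.59 ± 0.09, 0.51 ± 0.08 and 0.52 ± 0.08, each at the same adjusted p. HERC2P2 had no GC value, so no GC trend was taken out of its own values in that fit. CCDC3, a secreted protein gene that overlaps OPTN, was the lower gene, with 31.5, 28.1 and 29.3 CPM in SFN libraries and 48.2, 35.7 and 46.4 CPM in vehicle libraries, at -0.57 ± 0.09 (edgeR adjusted p = 0.0407). For CCDC3 all SFN libraries, replicate 2 included, lay below all vehicle libraries. With all 12 libraries none of the 5 was called. When the fit held only the 4 SFN and vehicle libraries outside replicate 2, 49 of 14411 genes were called, 9 higher (0.0625%) and 40 lower (0.278%), and OGT, CCDC3, ID3, NPPB and the class II chaperone CD74 were among them. With GC content uncorrected, as in that fit, genes at an unadjusted p under 0.05 had a median GC content of 39.4% where higher and 58.5% where lower.

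**Figure D5:**
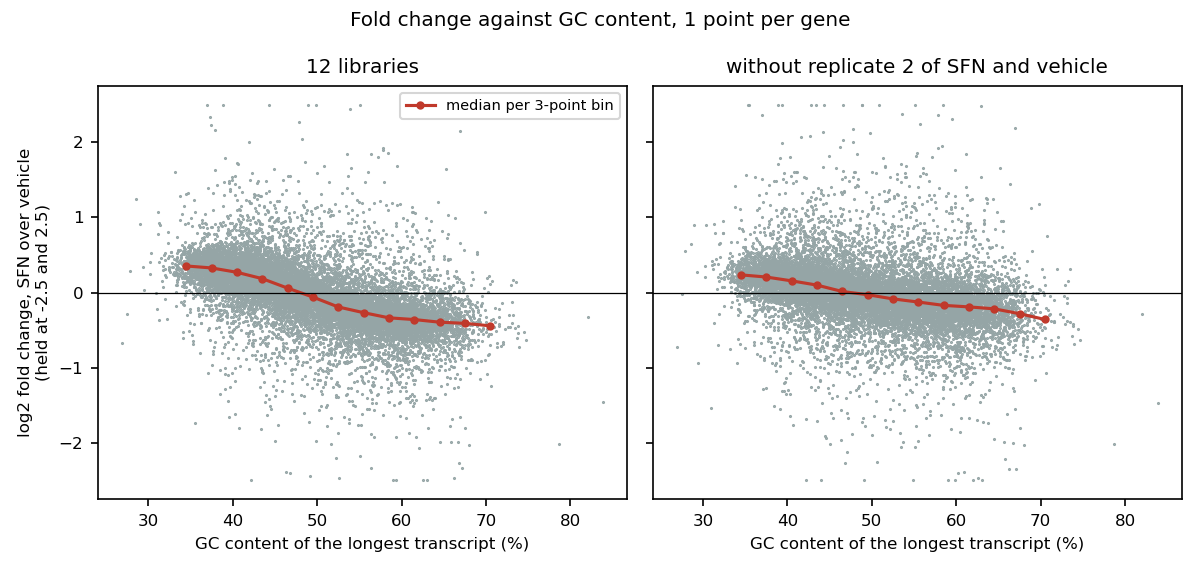
Log2 fold change of SFN over vehicle (vertical axis, held at -2.5 and 2.5) against the GC content in percent of each gene's longest transcript (horizontal axis), 1 point per gene, with all 12 libraries on the left and without replicate 2 of SFN and vehicle on the right. The line of medians per bin runs downward from AT-rich to GC-rich genes in both panels and is less steep without replicate 2.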

How the data were processed

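Total RNA of trypsin-harvested cells was purified on RNeasy columns, per the labels' protocols. HISAT2 and the human build GRCh37/hg19 are named in the submitters' processing notes, and no source used here gives strand, read length or counting tool. Raw counts and FPKM values per gene were deposited by the authors, with their own log2 fold changes and p-values. The main test of these counts was that of edgeR 4.0.16 under R 4.3.3 (filterByExpr, TMM, robust quasi-likelihood F test, Benjamini-Hochberg adjustment, threshold 0.05) on 12 libraries, and again without replicate 2 of SFN and vehicle. FPKM served for markers only. SE is the absolute log2 fold change over the square root of F. SFN against vehicle rests on 3 libraries per group of 15265377 to 18301873 counts, or 2 per group without replicate 2, and SFN+ZA against ZA on 3 per group of 15888471 to 25351286 counts. Alternatives were DESeq2 1.42.0, other filters, left-out libraries, a replicate block and a GC offset (lowess of each library's log2 CPM deviation on GC content of the longest GENCODE transcript, span 0.3, 97.4% of tested genes). Genes were named as the 12 higher and 12 lower by the rule in the report, up to 3 of lowest p per list, all NRF2 genes and 13 set genes, and 1 further gene under this rule is not reported here. Same-numbered SFN and vehicle libraries deviated together (correlations of 0.62, 0.65 and 0.28), and the numbers were taken to pair them, with the block as an alternative. Deviations from a mean of 3 libraries sum to 0. Replicate 2 stood apart in both groups, which alone can raise all 3 correlations, so they do not test the pairing. Libraries of unlike number were not compared. Vehicle against ZA gave -0.53, -0.25 and 0.12 by number, and vehicle against SFN+ZA gave 0.33, 0.22 and -0.05. The comparison, the gene lists and the tests were chosen with earlier results of these data known.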

Additional observations from a re-analysis of the deposited data

How the results depend on the processing

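SFN against vehicle gave 0 calls under the alternatives run, except for 5 (4 higher and 1 lower) under the GC offset without replicate 2. The replicate block on the 6 SFN and vehicle libraries called 0 genes, with a lowest adjusted p of 0.512 and 942 genes at an unadjusted p under 0.05, and changed no call. Without replicate 2, where the count was 0, DESeq2 called 22 (15 higher), dropping the low-count filter 368 (46 higher and 322 lower), the 4 SFN and vehicle libraries alone 49 (9 higher and 40 lower), the GC offset 5, and the GC offset on these 4 libraries alone, chosen after seeing the data, 1. Leaving out 1 more library gave 0 to 11 calls, the 11, all higher, without vehicle replicate 1. The sets of 5, 49 and 22 shared 2 genes, CCDC3 and OGT. For SFN+ZA against ZA the GC offset without replicate 2 gave 10 (8 higher and 2 lower) where the count was 0. The sign of the 24 genes named by rule was in part fixed by their choice and is not read as stability. Of the 13 set genes, 6 changed sign in some of the 19 alternatives. KEAP1 turned to 0.012 without replicate 2, 0.10 with the GC offset, 0.20 with both, and, with the GC offset, 0.11 with the block on 12 libraries, 0.13 with the block on 6 and 0.11 on 6 libraries alone. ABCC3 turned to -0.017 and -0.11 with the replicate block on 12 and 6 libraries. HSPA1A turned to -0.020 with the block on 6 libraries, -0.37 without replicate 2 and -0.17 with the GC offset as well. CDKN1A turned to 0.0049 with the GC offset without replicate 2. Leaving out 1 library gave KEAP1 -0.50 to 0.12, TXNRD1 -0.026 to 0.30, SRXN1 -1.85 to 1.26, ABCC3 -0.17 to 0.44, HSPA1A -0.42 to 0.33 and CDKN1A -0.70 to 0.091 on the log2 scale. The cause was not tested. Of the 37 lists, 13 kept the sign of their median in all 19 alternatives, among them the mitochondrially encoded genes (0.29 to 1.51) and the MHC genes (-0.56 to -0.21), and 24 changed it.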
